A study of Homo sapiens with 29 samples.

Results

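DNA topoisomerases and the 2 phosphodiesterases that clear their DNA adducts were followed as 7 genes across xenograft tumours treated with doxorubicin, decitabine or both. The genes were matched by symbol to Ensembl identifiers in a table of 58302 genes, and all 7 were found. They were the type II enzymes TOP2A (ENSG00000131747, chromosome 17, 40388516 to 40417950, minus strand) and TOP2B (ENSG00000077097, chromosome 3, 25597905 to 25664907, minus strand). TOP1 (ENSG00000198900, chromosome 20, 41028818 to 41124487, plus strand) was the nuclear type IB enzyme. The type IA enzymes were TOP3A (ENSG00000177302, chromosome 17, 18271428 to 18315007, minus strand) and TOP3B (ENSG00000100038, chromosome 22, 21957025 to 21982816, minus strand). The repair enzymes were TDP1 (ENSG00000042088, chromosome 14, 89954939 to 90044768, plus strand) and TDP2 (ENSG00000111802, chromosome 6, 24649977 to 24667033, minus strand). Gene positions are from GENCODE 29 on GRCh38. Of the 7 genes, 6 passed the filter on low counts with 13495 genes of the table, and TOP3B did not.

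The tumours were orthotopic grafts of MDA-MB-231 cells, a human triple-negative breast cancer line, or of a derivative resistant to paclitaxel. The host was the SCID-beige mouse, which has no functional lymphocytes. The 29 libraries formed 8 groups. For resistant tumours 1500000 cells were injected and treatment began on day 16, with 3 combination, 4 doxorubicin, 3 decitabine and 4 vehicle libraries. For parental tumours the number was 250000 cells and the first day 6, with 4 combination, 3 doxorubicin, 4 decitabine and 4 vehicle libraries. Decitabine was dosed at 0.4 mg/kg and doxorubicin at 1 mg/kg in 2 cycles of 12 days, each course lasting 26 days with 2 rest days included, and the combination held both drugs. The line therefore cannot be told apart from the number of cells injected or the day treatment began. Each line was injected on both flanks and each treatment had 4 mice. Which library came from which mouse is not stated, and libraries that share a mouse would make p-values too small.

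Topoisomerases relieve the torsion and tangles that replication, transcription and chromosome segregation put into DNA, by cutting it through a tyrosine that stays joined to the DNA end until the cut is resealed. TOP2A cuts both strands and is made mainly in dividing cells, while TOP2B, its close paralogue, is also made in resting cells. Doxorubicin, an anthracycline, intercalates into DNA and traps both type II enzymes on cut DNA. TOP1 nicks one strand ahead of polymerases and is the target of camptothecins. TOP3A works with the BLM helicase to take apart joined DNA molecules, and TOP3B acts on RNA as well as DNA. When an enzyme stays trapped, TDP1 removes TOP1 remnants from 3′ ends and TDP2 removes type II remnants from 5′ ends. Decitabine, a cytidine analogue, traps DNA methyltransferases on DNA in replicating cells.

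The promoters of TOP2A and TOP1 are shown because these were the 2 genes of the set called lower when doxorubicin was added to decitabine in parental tumours. The windows are the 250 bases before the transcription start, from RefSeq on GRCh38.p14, at chr17:40417897-40418146 on the minus strand for TOP2A and chr20:41028572-41028821 on the plus strand for TOP1. Capitals mark 3 motifs, each searched on both strands, and no matches overlapped. One is the CCAAT box, bound by the factor NF-Y. Another, TTTGAA, is the core of a cell cycle element bound by MuvB complexes. The last, GGGCGG, is a GC box.
TOP2A: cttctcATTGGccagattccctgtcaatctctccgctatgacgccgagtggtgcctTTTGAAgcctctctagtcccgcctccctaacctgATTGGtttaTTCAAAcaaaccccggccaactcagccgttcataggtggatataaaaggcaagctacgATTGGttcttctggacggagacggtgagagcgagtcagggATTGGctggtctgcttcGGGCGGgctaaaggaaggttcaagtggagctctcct
TOP1: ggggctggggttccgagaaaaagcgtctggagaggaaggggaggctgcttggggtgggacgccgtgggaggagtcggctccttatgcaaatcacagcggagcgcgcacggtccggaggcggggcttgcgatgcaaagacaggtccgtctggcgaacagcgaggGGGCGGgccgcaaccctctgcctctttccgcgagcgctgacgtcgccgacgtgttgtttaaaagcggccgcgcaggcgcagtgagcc
The TOP2A window held 4 CCAAT matches, all on the opposite strand and therefore read as ATTGG. It also held 2 TTTGAA matches and 1 GGGCGG match. At least 4 CCAAT matches were found in 0.874% of 35116 windows of the same length in the RefSeq table, at least 2 TTTGAA matches in 1.72%, and at least 1 GGGCGG match in 42.6%. The TOP1 window held 1 GGGCGG match and 0 matches of the other motifs. These matches describe the sequence and no binding was measured.

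Counts came from 3′ tags, 1 per transcript end, so a gene's count does not grow with transcript length and levels were set side by side as CPM (counts scaled to a common library size), without dividing by length. TOP2A was the most abundant of the set, with 124036 counts over the 29 libraries and a mean of 930.4 CPM, above 99.1% of the genes tested. TOP1 averaged 278.3 CPM and TOP2B averaged 171.2 CPM. TDP1 averaged 64.34 CPM and TOP3A averaged 32.56 CPM. TDP2 was low, at 6.487 CPM on average and 881 counts in all, above 26.8% of the genes tested. TOP3B was near the limit of counting, with 35 counts in all. The order TOP2A, TOP1, TOP2B held in every library (the plot of levels by library shows each value).

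**Figure D1:**
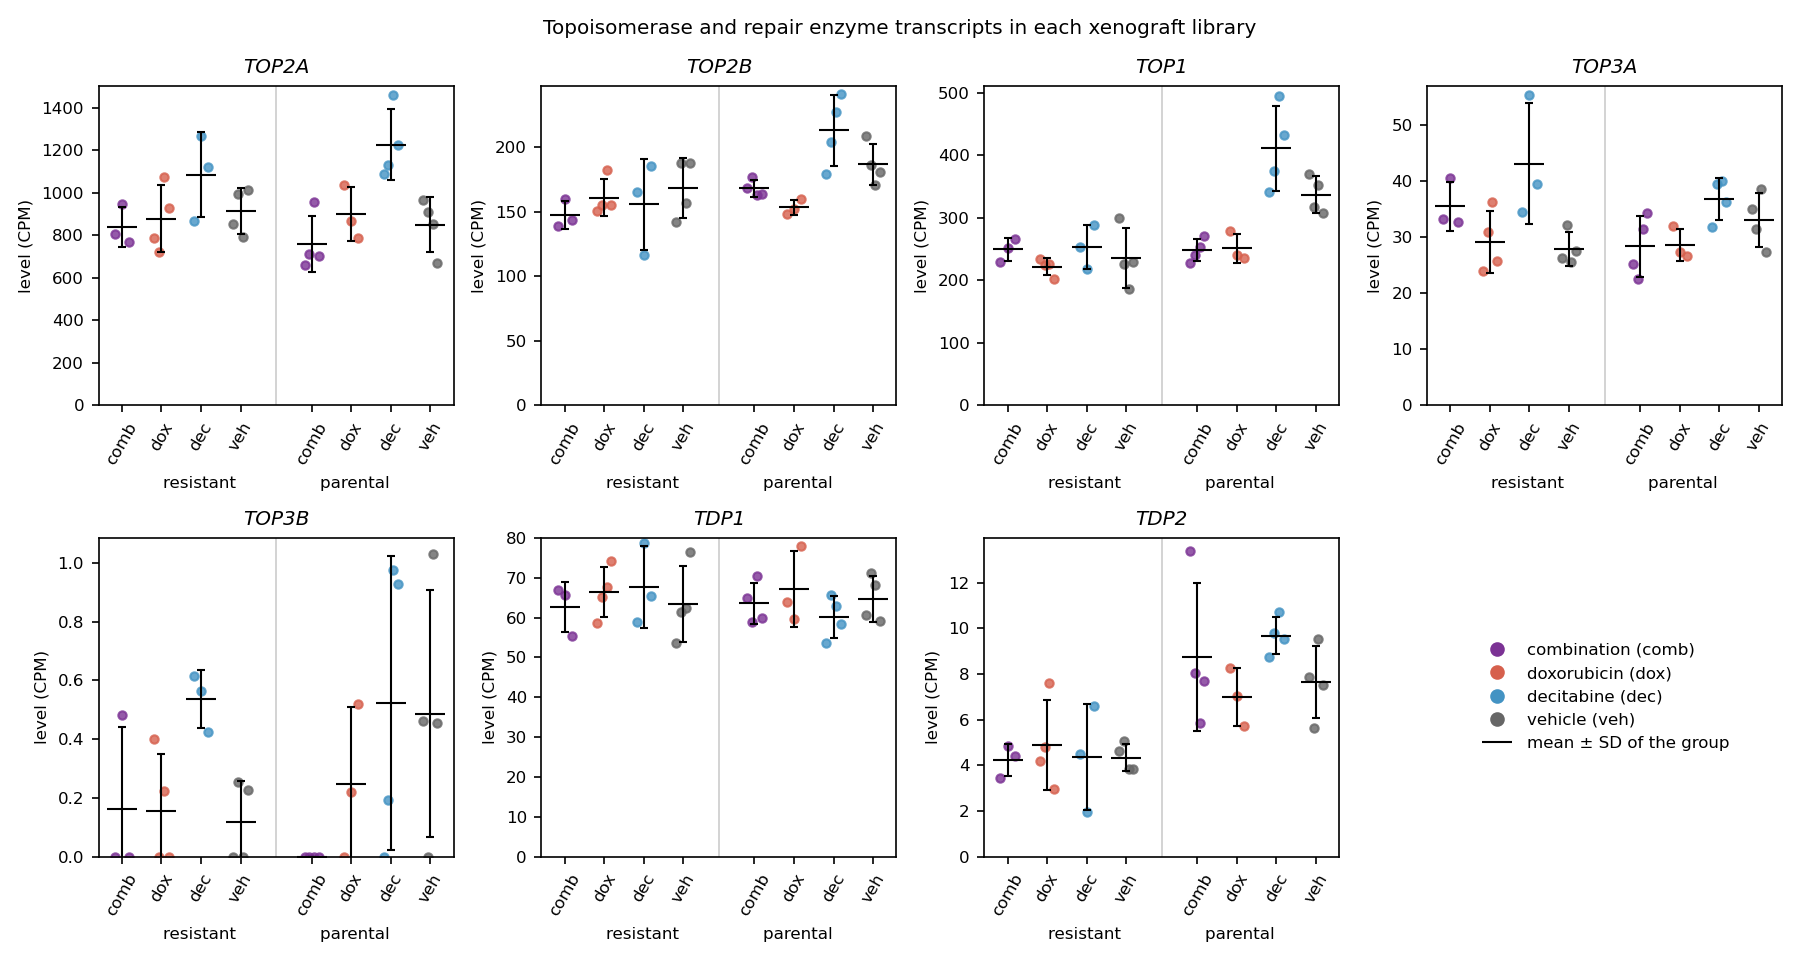
Level of each gene in each library (y axis, CPM, from 0), by treatment within resistant (left) and parental (right) tumours. Points are libraries and bars are the group mean ± SD; TOP1 in parental tumours treated with decitabine or vehicle lies above the other 6 groups, and TDP2 is lower in most resistant libraries.

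Library totals ran from 3398261 to 5382295 counts, with a median of 4600007. Parental vehicle library 3 and resistant decitabine library 2 stood apart from the rest in an earlier principal component analysis of these data, and results that rest on them are given with and without them. Among the 8 markers of the tumour line, VIM averaged 2350 CPM, CAV1 averaged 1160 CPM, CD44 averaged 718 CPM and AXL averaged 516 CPM. EGFR averaged 150 CPM and KRT18 averaged 121 CPM, while KRT8 at 32.4 CPM and PLAU at 19.2 CPM were low. Of the hormone receptor genes, PGR had 1 count in all and ESR1 averaged 0.744 CPM. Of other genes taken as low in this line, ERBB2 averaged 18.6 CPM and GATA3 averaged 36.8 CPM, while CDH1, also on that list, averaged 109 CPM and was not low. The 7 fibroblast markers summed to between 217 and 2110 CPM, of which COL1A1 gave 740 CPM on average, while DCN and LUM averaged 0.507 and 0.223 CPM. Endothelial markers summed to between 6.93 and 33.1 CPM, of which PECAM1 gave 11.8 CPM on average. Myeloid markers summed to between 20 and 43 CPM, of which CD68 gave 24.4 CPM on average. Lymphocyte markers summed to between 0 and 0.617 CPM and adipocyte markers to between 0.217 and 32.6 CPM. The grafted cells were human, the host cells were mouse and the counts are of human genes. The sums of host-type markers therefore do not measure how many host cells were present. Whether these counts came from tumour cells or from mouse reads was not tested. In such bulk samples, fewer cells of a type and less RNA per cell cannot be told apart.

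Calls below are genes whose p in edgeR's quasi-likelihood test, adjusted over all 13495 genes, was under 0.05. Whether groups overlapped is given as a description. The share of all genes with groups that did not overlap was not counted, so separate groups alone do not show a change. With doxorubicin added to decitabine, 2 of the 6 genes tested were called in parental tumours, where 6.63% of all genes were called. In resistant tumours the same comparison called 0 of 6 and 0% of all genes, with 504 genes at an unadjusted p under 0.05 and 0 genes called by DESeq2. With doxorubicin alone against vehicle, 0 of 6 were called in resistant tumours, against 0% of all genes, with 591 genes at an unadjusted p under 0.05 and 1 gene called by DESeq2. The same contrast called 0 of 6 in parental tumours, against 0.23% of all genes. Averaged over both lines and both decitabine states, the doxorubicin effect called 1 of 6, against 2.37% of all genes. Decitabine alone against vehicle called 1 of 6 in resistant tumours, against 3.33% of all genes, and 0 of 6 in parental tumours, against 1.67%. The averaged decitabine effect called 0 of 6, against 6.8%. The combination called 0 of 6 against doxorubicin (0.66% of all genes in resistant and 0.304% in parental tumours) and 0 of 6 against vehicle (1.13% in resistant and 1.03% in parental tumours).

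Resistant against parental tumours called 1 of 6 under the combination (21.9% of all genes), 0 of 6 under doxorubicin (13.9%), 3 of 6 under decitabine (26.8%) and 2 of 6 under vehicle (20.1%). Averaged over the 4 treatments the line difference called 3 of 6, against 46% of all genes, so these counts lie close to the background of the line contrasts. The response to doxorubicin alone differed between the lines for 0 of 6 genes and 0% of all genes, with 1078 genes at an unadjusted p under 0.05 and 31 genes called by DESeq2. For the response to decitabine alone the line difference called 0 of 6, against 0.119% of all genes. The comparisons share groups: the parental decitabine libraries, for example, enter the combination, vehicle and line contrasts, so the contrasts are not independent of each other.

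TOP2A, the isoform of dividing cells, was lower with the combination than with decitabine in parental tumours. It was not called lower there than with vehicle or with doxorubicin alone, as given below. Its levels were 660.4, 713.3, 954.7 and 704.9 CPM in the combination libraries, against 1089, 1131, 1461 and 1224 CPM in the decitabine libraries. Every combination library lay below every decitabine library, though combination library 3 stood well above the other 3. The means were 758.3 ± 133 CPM with the combination and 1226 ± 167 CPM with decitabine (SD, n = 4 each), a log2 change of -0.69 (SE 0.15, adjusted p = 0.00668). In resistant tumours TOP2A had 807.9, 947.5 and 767.1 CPM with the combination, against 869.5, 1268 and 1120 CPM with decitabine. Those groups overlapped, and the log2 difference of -0.37 (95% interval -0.72 to -0.02) was not called, with an adjusted p of 1. The line difference between these 2 changes was 0.32 on the log2 scale (95% interval -0.14 to 0.79, adjusted p = 0.834) in a comparison added after the data were seen. That comparison called 0 of 6 genes and 0% of all genes, with 883 genes at an unadjusted p under 0.05 and 1 gene called by DESeq2.

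Beside the change of TOP2A in parental tumours, the summed fibroblast markers ran from 357 to 770 CPM with the combination and from 740 to 2060 CPM with decitabine. Endothelial markers summed to between 18.2 and 22.5 CPM with the combination and between 13.7 and 16.5 CPM with decitabine, and lymphocyte markers were at 0 in all combination libraries and at most 0.192 CPM with decitabine. Their part in the result was not tested. Without parental decitabine library 3, which had the highest TOP2A and TOP1 levels, the TOP2A change was -0.62 (adjusted p = 0.0398) and the number of genes called was 210 in place of 895.

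With doxorubicin alone the TOP2A levels overlapped those of vehicle in both lines. Resistant tumours had 788.3, 719.5, 1076 and 930 CPM with doxorubicin and 854.6, 993.2, 790.2 and 1015 CPM with vehicle, a log2 difference of -0.06 (95% interval -0.36 to 0.25). Parental tumours had 1038, 868.4 and 789.6 CPM with doxorubicin and 966, 912, 852.4 and 670.7 CPM with vehicle, a log2 difference of 0.08 (95% interval -0.25 to 0.41). The doxorubicin effect in parental tumours was more negative with decitabine than without it by 0.77 on the log2 scale (fitted difference -0.77, 95% interval -1.22 to -0.33), also in a comparison added after the data were seen. That difference had an unadjusted p of 0.00139 in the edgeR fit and was not called (adjusted p = 0.171), where 0 of 6 genes and 0.00741% of all genes were called. The averaged doxorubicin effect on TOP2A was -0.26 (SE 0.08, adjusted p = 0.07), which DESeq2 called and the edgeR fit did not.

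With decitabine alone TOP2A was above every vehicle library in parental tumours, at the decitabine values given above. The log2 difference was 0.53 (SE 0.15), with an adjusted p of 0.0592, so it was not called in the edgeR fit, whereas DESeq2 called it. In resistant tumours the groups overlapped and the difference was 0.25 (SE 0.16, adjusted p = 0.394). The 2 decitabine groups had the highest TOP2A means of the 8 groups and the parental combination group the lowest, but no gap between neighbouring groups in that order was larger than the larger of their SDs. The parental combination differed from parental vehicle by -0.17 on the log2 scale (SE 0.15, adjusted p = 0.553). From parental doxorubicin it differed by -0.25 (SE 0.16, adjusted p = 0.563). The groups overlapped in both comparisons and neither was called. The called change of TOP2A was therefore measured from the decitabine level, which was above vehicle by a difference not called in the edgeR fit. A fall below the vehicle level was not shown. TOP2A did not differ in a called way between the lines, with an averaged line difference of 0.01.

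TOP2B, the isoform of resting and dividing cells alike, varied less. The combination gave 168.7, 177.4, 163.2 and 163.7 CPM in parental tumours, against 179.2, 204.4, 227.6 and 241.4 CPM with decitabine. These groups did not overlap, yet the log2 difference of -0.34 (SE 0.12) had an adjusted p of 0.0796 and was not called. With doxorubicin alone, parental tumours had 148.5, 152.3 and 159.7 CPM, against 208.9, 186.7, 171.1 and 181.1 CPM with vehicle. Again the groups were separate and the log2 difference of -0.28 (SE 0.13, adjusted p = 0.435) was not called. The parental combination libraries also lay above the doxorubicin ones without overlap. That log2 difference of 0.13 (SE 0.13, adjusted p = 0.714) was not called either. In resistant tumours doxorubicin gave 151, 155.4, 182.7 and 155.3 CPM, and vehicle gave 141.8, 188.3, 157.1 and 188.2 CPM, which overlapped.

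Between the lines TOP2B was lower in resistant tumours under decitabine, at 165.4, 116.4 and 185.5 CPM, against the 4 parental decitabine values between 179.2 and 241.4 CPM. The ranges overlapped, and the log2 difference of -0.45 (SE 0.13, adjusted p = 0.0112) was called. Without resistant decitabine library 2, the one at 116.4 CPM, it was -0.28 (adjusted p = 0.131). Under the combination the resistant libraries lay below the parental ones without overlap. The log2 difference there, -0.19 (SE 0.13, adjusted p = 0.305), was not called. The averaged line difference was -0.18 (adjusted p = 0.0223) and was lost without any 1 of 4 libraries, with adjusted p up to 0.0683: parental combination 1, parental doxorubicin 3, resistant vehicle 1 or resistant vehicle 3.

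The ratio of TOP2A to TOP2B, both in CPM, ran from 3.7 to 10.9 over the 29 libraries, with a mean of 5.51 ± 1.29. Resistant tumours averaged 5.69 ± 0.319 with the combination, 5.43 ± 0.633 with doxorubicin, 7.4 ± 3.05 with decitabine and 5.43 ± 0.425 with vehicle (SD, n = 3, 4, 3 and 4). Parental tumours averaged 4.52 ± 0.899 with the combination, 5.88 ± 1.03 with doxorubicin, 5.78 ± 0.596 with decitabine and 4.55 ± 0.584 with vehicle (SD, n = 4, 3, 4 and 4). The highest ratio, 10.9, was that of resistant decitabine library 2, while libraries 1 and 3 of that group had 5.26 and 6.04. TOP2A made up between 53.5% and 72.9% of the counts of the 7 genes in a library.

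**Figure D2:**
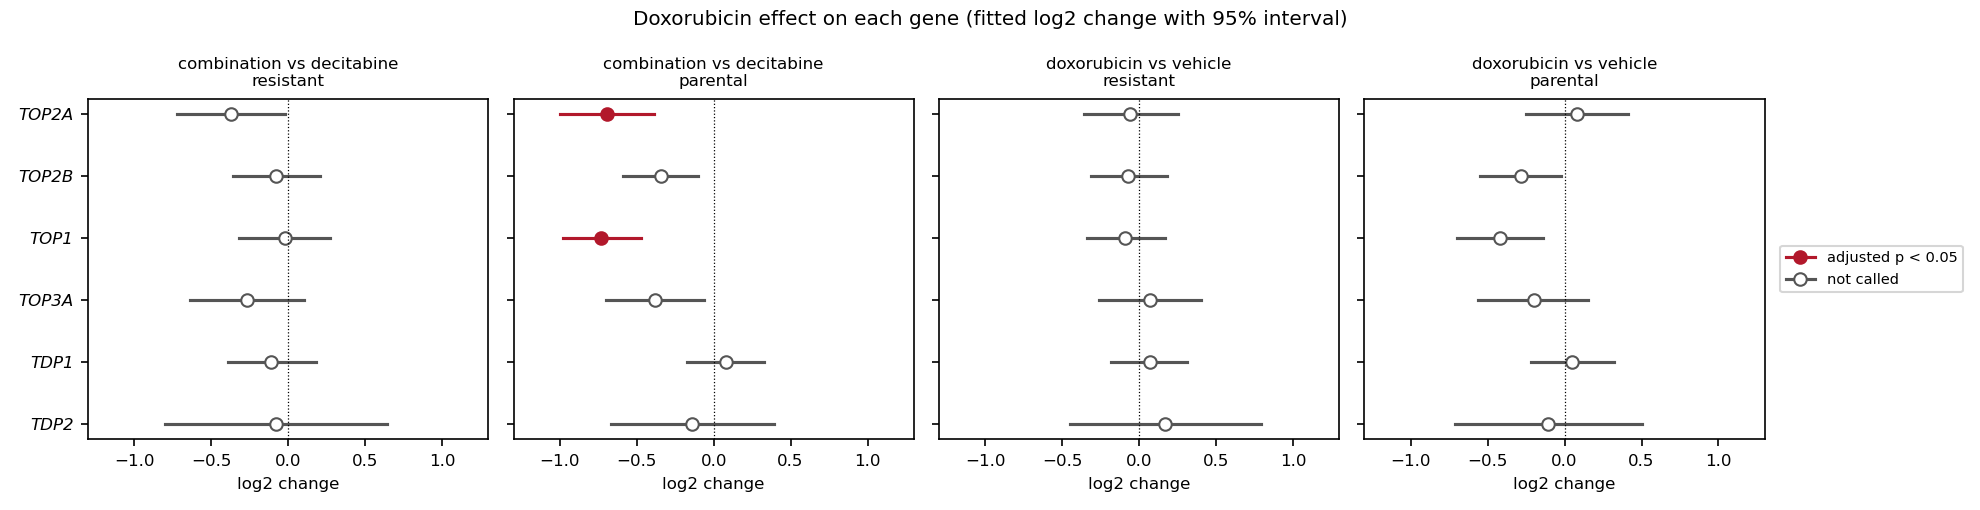
Fitted log2 change (x axis) of the 6 genes tested when doxorubicin was added to decitabine (left pair of panels) or given alone (right pair), in resistant and parental tumours. Points are edgeR estimates and lines are 95% intervals; the filled points, TOP2A at -0.69 and TOP1 at -0.73 in parental tumours, are the called changes.

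TOP1, the camptothecin target, fell with doxorubicin on average and was lower with the combination than with decitabine in parental tumours. Its levels there were 227.7, 241.1, 253.6 and 270 CPM with the combination, against 341, 375.1, 495.1 and 431.5 CPM with decitabine. The groups were far apart, with the highest combination library below the lowest decitabine library. The means were 248.1 ± 18 CPM with the combination and 410.7 ± 67.5 CPM with decitabine (SD, n = 4 each), a log2 change of -0.73 (SE 0.13, adjusted p = 0.00231). The call held without any 1 of the 8 libraries, with adjusted p from 0.000637 to 0.0186. In resistant tumours TOP1 had 229.9, 252.1 and 265.9 CPM with the combination, against 253.2, 218.1 and 288.5 CPM with decitabine. Those groups overlapped fully, and the log2 difference was -0.02 (95% interval -0.32 to 0.27). The change of TOP1 was less negative in resistant than in parental tumours by 0.70 on the log2 scale (95% interval 0.31 to 1.09), with an unadjusted p of 0.000943 in the edgeR fit and an adjusted p of 0.724, and was not called.

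With doxorubicin alone TOP1 had 233.9, 224.2, 225.8 and 202.3 CPM in resistant tumours, against 300.1, 226.5, 186.3 and 229.2 CPM with vehicle. The resistant groups overlapped, and the log2 difference of -0.09 (95% interval -0.34 to 0.17) was not called. Parental tumours had 278.2, 239.7 and 235.6 CPM with doxorubicin, against 370.2, 317.5, 352.1 and 307.1 CPM with vehicle. The parental groups did not overlap, and the log2 difference of -0.42 (SE 0.14, adjusted p = 0.187) was not called. The line difference in this response was 0.33 (95% interval -0.04 to 0.71, adjusted p = 0.67). Averaged over lines and decitabine states, TOP1 fell by 0.32 on the log2 scale with doxorubicin (fitted change -0.32, SE 0.07, adjusted p = 0.0165), the 1 call among the 6 genes. Leaving out each of the 29 libraries in turn kept that call, with adjusted p up to 0.0487. The changes averaged there were -0.73 and -0.42 in parental tumours and -0.02 and -0.09 in resistant tumours, with and without decitabine. Against vehicle the parental combination gave -0.44 (SE 0.12, adjusted p = 0.0707), with no overlap of the groups and no call. Against doxorubicin alone the parental combination gave -0.02 (SE 0.13, adjusted p = 0.971). Decitabine alone against vehicle gave 0.29 in parental tumours (SE 0.12, adjusted p = 0.207), where the groups overlapped and TOP1 was not called.

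TOP1 was also called lower in resistant than in parental tumours under decitabine and under vehicle. Under decitabine the 3 resistant libraries, from 218.1 to 288.5 CPM, lay below the 4 parental ones, from 341 to 495.1 CPM, a log2 difference of -0.70 (SE 0.14, adjusted p = 0.00037). Under vehicle the 4 resistant libraries, from 186.3 to 300.1 CPM, lay below the 4 parental ones, from 307.1 to 370.2 CPM, a log2 difference of -0.52 (SE 0.13, adjusted p = 0.00365). Both calls held without any 1 library, and the averaged line difference was -0.35 (SE 0.07, adjusted p = 9.11e-05). With doxorubicin the 4 resistant libraries, from 202.3 to 233.9 CPM, also lay below the 3 parental ones, from 235.6 to 278.2 CPM, but the log2 difference of -0.18 (95% interval -0.46 to 0.09, adjusted p = 0.425) was not called. Under the combination the lines overlapped and the log2 difference was 0.01 (95% interval -0.27 to 0.28). Group means of TOP1 were 249.3, 221.6, 253.3 and 235.5 CPM in resistant combination, doxorubicin, decitabine and vehicle tumours. In parental tumours they were 248.1, 251.1, 410.7 and 336.7 CPM in the same order of treatments. Only the parental decitabine and parental vehicle means stood apart from their neighbours by more than the larger SD, and the other 6 groups did not.

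TOP3A, the catalytic subunit of the BLM dissolution complex, rose with decitabine in resistant tumours. Its levels were 34.5, 55.4 and 39.6 CPM with decitabine, against 26.2, 32.2, 25.6 and 27.6 CPM with vehicle, with no overlap. The means were 43.17 ± 10.9 CPM (n = 3) and 27.88 ± 2.99 CPM (SD, n = 4), a log2 change of 0.62 (SE 0.17, adjusted p = 0.0401). The call was lost without resistant decitabine library 2 (log2 0.41, adjusted p = 0.355), without decitabine library 3 and without vehicle library 1, 3 or 4. It was also lost in a fit of these 2 groups alone (log2 0.63, adjusted p = 0.169). Endothelial markers summed to between 16.2 and 18.9 CPM in these decitabine libraries and between 8.59 and 12.9 CPM in the vehicle libraries, and fibroblast markers to between 812 and 1560 CPM with decitabine and between 654 and 2100 CPM with vehicle. Their part in the result was not tested. In parental tumours the values were 31.9, 39.5, 40 and 36.2 CPM with decitabine and 35, 31.5, 38.6 and 27.4 CPM with vehicle, a log2 difference of 0.16 (adjusted p = 0.607). The averaged decitabine effect on TOP3A was 0.26 (SE 0.08, adjusted p = 0.0567). With doxorubicin added to decitabine, TOP3A in parental tumours had 25.1, 22.6, 31.5 and 34.4 CPM, against the decitabine values above. The ranges overlapped and the log2 difference of -0.38 had an adjusted p of 0.14.

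TOP3B, the paralogue that also acts on RNA, had between 0 and 5 counts in any library and none in 13 of them. All 4 parental combination libraries had 0 counts. It did not pass the filter on low counts and was not tested. In resistant tumours it had 3, 2 and 2 counts with decitabine (0.617, 0.565 and 0.426 CPM), against 0, 1, 0 and 1 counts with vehicle (at most 0.253 CPM). These groups did not overlap, but they differ by few counts, and the groups overlapped in the other comparisons of 2 groups. A library with 0 counts allows a level of up to 3 counts there. An antisense gene, AC245452.1, overlaps TOP3B and had 350 counts. The strand setting of the counting is not given in the sources used here, and without strand the pair cannot be told apart.

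TDP1, which clears TOP1 from 3′ ends, was the steadiest of the set. Its lowest library had 53.5 CPM and its highest had 78.8 CPM, and the 8 group means lay between 60.15 and 67.65 CPM. In parental tumours the combination averaged 63.54 ± 5.25 CPM and decitabine 60.15 ± 5.29 CPM (SD, n = 4 each), a log2 difference of 0.08 (95% interval -0.17 to 0.33). The averaged doxorubicin effect was 0.02 (95% interval -0.11 to 0.15). No comparison called TDP1, and the intervals for the averaged drug effects reach no further than 0.18 on the log2 scale in either direction.

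TDP2, which clears type II enzymes from 5′ ends, was lower in resistant tumours. Under the combination it had 3.46, 4.83 and 4.42 CPM in resistant tumours, against 13.4, 8.06, 5.85 and 7.71 CPM in parental tumours. Under doxorubicin resistant tumours had 4.21, 4.79, 7.6 and 2.95 CPM, against 8.27, 7.02 and 5.73 CPM in parental tumours. Under decitabine resistant tumours had 4.52, 1.98 and 6.6 CPM, against 8.73, 9.78, 10.7 and 9.52 CPM in parental tumours. The lines did not overlap under the combination or decitabine, and they overlapped under doxorubicin through resistant library 3. Under vehicle resistant tumours had 4.61, 5.07, 3.84 and 3.84 CPM, against 7.88, 5.65, 9.52 and 7.53 CPM in parental tumours, again with no overlap.

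The averaged line difference of TDP2 was -0.88 on the log2 scale (adjusted p = 2.42e-05) and held without any 1 of the 29 libraries. By treatment it was -1.05 (SE 0.31, adjusted p = 0.0158) under the combination, -0.54 (adjusted p = 0.272) under doxorubicin, -1.11 (SE 0.31, adjusted p = 0.00813) under decitabine and -0.81 (SE 0.29, adjusted p = 0.0481) under vehicle. The combination call was lost without parental combination library 1 (log2 -0.74, adjusted p = 0.103) or resistant combination library 1. The decitabine call was lost without resistant decitabine library 2 (log2 -0.80, adjusted p = 0.0719). The vehicle call was lost without any 1 of 7 of the 8 libraries, with adjusted p up to 0.15 without parental vehicle library 3, and was kept without parental vehicle library 2. It was also lost with upper quartile scaling (adjusted p = 0.0529) and with a filter of 1 CPM in 3 libraries (adjusted p = 0.0537). No drug comparison called TDP2. Under vehicle, endothelial markers summed to between 8.59 and 12.9 CPM in resistant and between 11.2 and 17.7 CPM in parental tumours. PECAM1 gave most of that sum and was lower in resistant tumours (-1.15, adjusted p = 0.00146). Of the 3 endothelial markers tested only 1 was below 0, and their median was 1.06. Fibroblast markers summed to between 654 and 2100 CPM in resistant and between 798 and 1240 CPM in parental tumours. Their part in the line differences was not tested. Resistant libraries held between 7 and 34 TDP2 counts each and parental libraries between 22 and 72, so counting error is a large part of these levels.

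**Figure D3:**
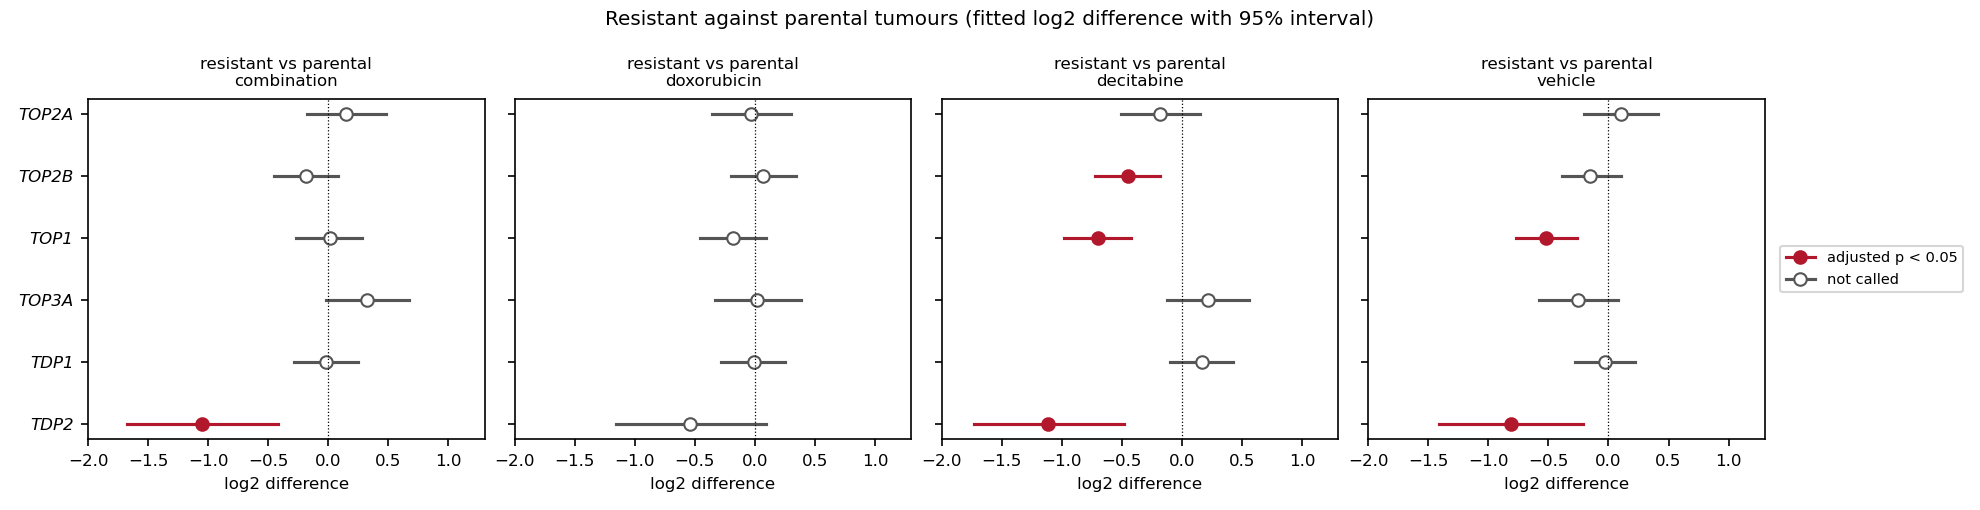
Fitted log2 difference (x axis) of resistant against parental tumours for the 6 genes tested, under the combination, doxorubicin, decitabine and vehicle. Points are edgeR estimates and lines are 95% intervals; TDP2 lies below 0 in all 4 panels and is called in 3, and TOP1 is called under decitabine and vehicle only.

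Lists of related genes place these values. When doxorubicin was added to decitabine in parental tumours, 19 of 31 proliferation genes fell and 0 rose, with a median log2 difference of -0.72 against 0.02 over all genes. Of all 13495 genes 6.63% were called in this comparison, 526 lower and 369 higher. Against vehicle in parental tumours, the combination called 0 of 31, with a median of -0.22 against 0.007 and 1.03% of all genes called. Doxorubicin alone called 0 of 31, with a median of 0.14 against 0.025 and 0.23% of all genes called. The proliferation genes that fell included MKI67, the Ki-67 antigen (-1.37, adjusted p = 0.00338), CENPE, a kinetochore motor (-1.31, adjusted p = 0.00369), BUB1, a spindle checkpoint kinase (-1.20, adjusted p = 0.00686), and CENPF (-1.01, adjusted p = 0.00561). Without parental decitabine library 3 the number was 6 of 31. With 1 of the 8 libraries left out in turn, the list median ran from -0.79 to -0.61. Of 17 condensin, cohesin and CTCF genes, which fold chromosomes together with TOP2A, 8 fell, beside the same 6.63% of all genes called. Condensin subunits were among them: NCAPG (-1.14, adjusted p = 0.00338), SMC4 (-1, adjusted p = 0.0019), SMC2 (-0.74, adjusted p = 0.0019) and NCAPD2 (-0.64, adjusted p = 0.0271). Without parental decitabine library 3, 5 of the 17 were called. Against vehicle in parental tumours, the combination called 1 of the 17, beside 1.03% of all genes, with a median of -0.16. Doxorubicin alone called 0 of the 17, beside 0.23% of all genes, with a median of -0.23.

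With doxorubicin added to decitabine in parental tumours, the other lists held from 1 to 3 called genes each, beside 6.63% of all genes. For the repair, regulator, neighbour, anthracycline and p53 lists these shares were close to that of all genes, and the genes are named as values of single genes. Of 30 tested genes that repair trapped topoisomerases, 3 fell in that comparison, with a list median of -0.13: APEX1, an abasic site endonuclease (-0.70, adjusted p = 0.0309), RBBP8, the end resection factor CtIP (-0.58, adjusted p = 0.00529), and MRE11, a nuclease (-0.41, adjusted p = 0.0343). That number was 1 without parental decitabine library 3 or 4 or parental combination library 2. Of 8 partners of the TOP3 enzymes, 3 fell: BLM (-0.99, adjusted p = 0.00922), FANCM (-0.87, adjusted p = 0.0228) and RECQL (-0.70, adjusted p = 0.00915). Only 1 of these was called without parental decitabine library 3. Among 18 regulators of TOP2A the kinase CDC7 (-0.84, adjusted p = 0.0306) and the methyltransferase EZH2 (-0.74, adjusted p = 0.0267) fell, with 0 called without that library or without parental combination library 2. Of 19 tested neighbours of TOP2A on chromosome 17, only CDC6, a replication licensing factor, fell (-0.82, adjusted p = 0.00939), with a list median of 0.19. Of 17 genes of anthracycline transport and metabolism 1 rose, the transporter ABCC3 (1.04, adjusted p = 0.0361), and of 19 p53 targets 1 rose, PLK3 (0.66, adjusted p = 0.0396). The CDC6 call was lost without parental decitabine library 3. The ABCC3 and PLK3 calls were lost without parental decitabine library 1, 3 or 4 or parental combination library 1 or 4, and also without combination library 3 for ABCC3 and library 2 for PLK3.

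In resistant tumours the same comparison called 0% of all genes, so the 0 calls in these 8 lists say nothing about the lists. The proliferation median was -0.29 against -0.004 over all genes, and 30 of 31 genes were below 0, as were 50.7% of all genes. For the doxorubicin effect averaged over lines and decitabine states 2.37% of all genes were called, 208 lower and 112 higher. It lowered 5 of 31 proliferation genes, among them MKI67 and BUB1 (-0.59 each), CENPE (-0.54) and CENPF (-0.47), and 4 of 17 condensin, cohesin and CTCF genes, SMC2 (-0.40), SMC4 (-0.39), SMC3 (-0.27) and PDS5B (-0.27). Without parental doxorubicin library 3, resistant decitabine library 3 or resistant combination library 1, the proliferation count was 0 and the condensin, cohesin and CTCF count was 2. Of the p53 targets 0 of 19 were called for that averaged effect, with a median of 0.03 against 0.008 over all genes, and at 2.37% of all genes a count of 0 in a list of this size is close to the background.

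**Figure D4:**
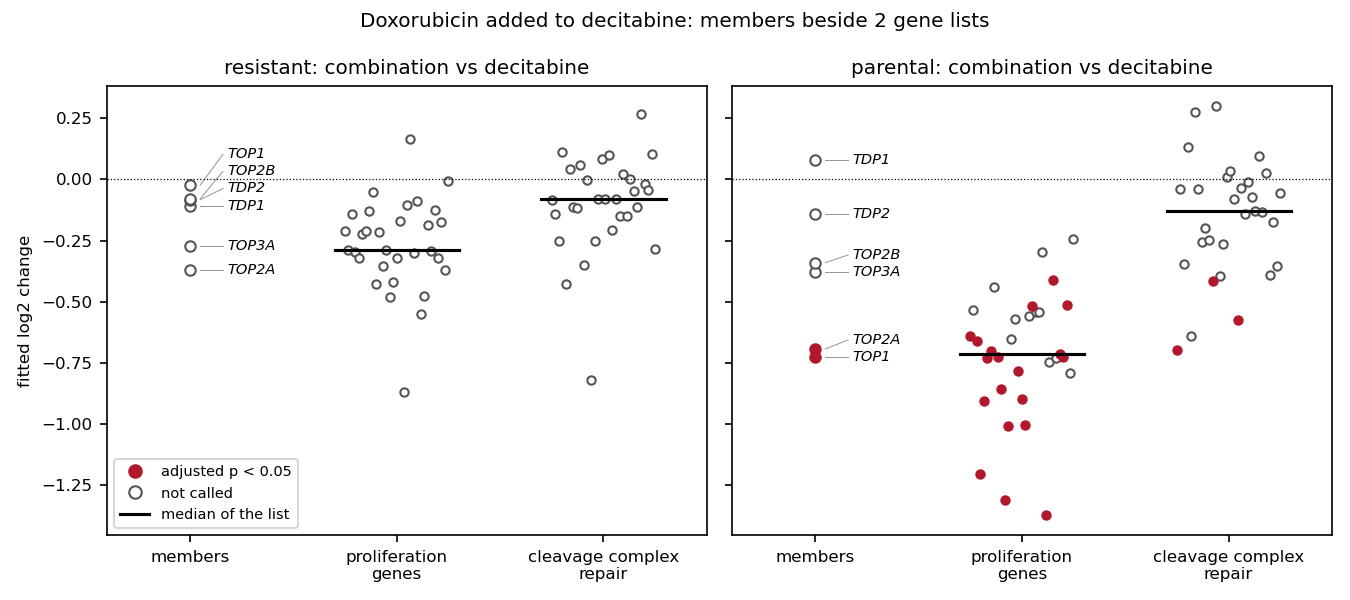
Fitted log2 change (y axis) when doxorubicin was added to decitabine in resistant (left) and parental (right) tumours, for the 6 topoisomerase and repair genes tested, 31 proliferation genes and 30 genes that repair trapped topoisomerases. Filled points are called and bars are list medians; the parental proliferation median is -0.72 and the resistant one is -0.29.

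With decitabine alone 5 of 31 proliferation genes rose in parental tumours, with a median of 0.51 against 0.006 over all genes. Of all genes 1.67% were called there, 107 higher and 118 lower. BIRC5, or survivin, was at 0.80 (adjusted p = 0.0182), RRM2, a ribonucleotide reductase subunit, at 0.79 (adjusted p = 0.0313) and CDK1 at 0.63 (adjusted p = 0.0344). The number ranged from 0 to 15 with 1 library left out, and was 0 without parental decitabine library 3, parental vehicle library 3 or parental vehicle library 4. In resistant tumours 0 of 31 were called, where 3.33% of all genes were, and the median was 0.06 against -0.003 over all genes. Between the lines, averaged over treatments, 10 of 19 p53 targets were higher in resistant tumours and 0 were lower, among them BTG2 (0.93, adjusted p = 0.00274) and FAS (0.58, adjusted p = 0.0231), and 6 were called without resistant combination library 1. The drug handling gene GSTP1, a glutathione transferase, was lower (-0.98, adjusted p = 1.66e-11) and ABCC3 was higher (1.45, adjusted p = 3.1e-09) in resistant tumours. Of the repair genes 4 were higher and 8 lower in resistant tumours, with ERCC1, a nuclease subunit, at 0.68 (adjusted p = 2.25e-09) and APEX1 at -0.66 (adjusted p = 1.55e-05). In the same contrast, proliferation genes had a median of 0 with 5 higher and 2 lower, and TOP2A at 0.01 lay close to it. Over all genes 46% were called in this contrast, so the list counts stand on a high background.

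The genes most like each member were found by Pearson's r of log2 CPM over the 29 libraries, after subtracting the mean of each line, among genes of at least 10 CPM. The libraries share treatment groups and scaling, so r is a description. TOP2A was most like KIF4A (0.93), NCAPG (0.93), TPX2 (0.92), CDK1 (0.92) and MKI67 (0.91), against a 99th percentile of 0.8 over 8715 genes. TOP1 was most like SLTM (0.89), PSIP1 (0.88), RIF1 (0.88), SLF1 (0.87) and ATAD5 (0.87), against a 99th percentile of 0.77. TOP2B was most like KIF5B (0.88), PRKCI (0.84), RAB10 (0.82), SLC25A4 (0.81) and ITGB1 (0.81), against 0.71. TOP2B and TOP2A shared none of their 5 most similar genes, and neither did any other pair of the genes tested. Directly between TOP2A and TOP2B, r was 0.41 over the 29 libraries, 0.6 in parental tumours and 0.13 in resistant tumours. TOP3A was most like FAM111A (0.88) and SUZ12 (0.86), against 0.77. The nearest genes to TDP1 (RRP36, 0.72) and TDP2 (ANTXR2, 0.75) were less like them, with 99th percentiles of 0.56 and 0.58.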

How the data were processed

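Transcripts were counted in 29 3′ tag libraries of human tumour xenografts. The deposited values were whole-number counts per gene that the authors had not normalised. The submitters' processing notes name cutadapt, STAR 2.7.3a, featureCounts, DESeq2 and the build GRCh38.p10. The strand setting, annotation release and handling of mouse reads are not given in the sources used here. Mouse reads that align to human genes, and reads of antisense or near-identical genes, may therefore be counted.

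Sample titles gave the groups. Low genes were removed with filterByExpr (count minimum 10, total minimum 15), and libraries were scaled by trimmed mean of M-values (factors 0.896 to 1.07) and fitted over all 29 libraries with 8 group means in edgeR 4.0.16 (quasi-likelihood, robust; R 4.3.3). P-values were adjusted by Benjamini-Hochberg over 13495 genes within each comparison, and an adjusted p without a named tool is from this fit. Changes are given on the log2 scale as fitted, with SE or 95% intervals, and levels as CPM with mean ± SD. Alternatives were other scalings and filters, DESeq2 1.42.0, fits of 2 groups only, an additive model, a replicate block and leaving libraries out. Tests were tried on simulated data.

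The 7 genes and the 15 lists were chosen with earlier results of these data known, and 2 tests of differences and the list counts with libraries left out were added after the data were seen. All 7 genes are named in the comparisons, with up to 4 called genes of the largest change per list, of which a part is printed, and up to 5 most similar genes. Libraries of a group differed by more than counting noise in each pair checked (chi-square per degree of freedom at least 3.65). Replicate numbers did not pair the libraries: 36 of 94 same-numbered pairs had residual correlations over 0.1, with a median of -0.0229. Of differently numbered pairs 108 of 273 were over 0.1, with a median of 0.00487. The highest residual correlation was 0.673 in same-numbered and 0.876 in differently numbered pairs, and its cause was not tested. Symbols were matched for 57532 of 58302 identifiers.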

Additional observations from a re-analysis of the deposited data

Results flagged for a closer look

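TOP2B in resistant doxorubicin library 3 was at 183 CPM, while the other 3 libraries of that group lay between 151 and 155 CPM. The gap to the nearest library was 0.862 of the range of the group, above Dixon's 95% critical value for 4 values. Of 35 such tests made on the 7 genes this was the 1 passed, and chance passes about 1 in 20. Without that library the averaged doxorubicin effect on TOP2B was called.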

How the results depend on the processing

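Over 2472 member values recomputed under other settings or with 1 library left out, 0 reversed a called value or one larger than its SE, and 110 changed sign, all with a main value within 1 SE of 0. The calls of TOP2A and TOP1 with doxorubicin added to decitabine in parental tumours, of TOP1 for the averaged doxorubicin effect and of TOP1 and TDP2 for the averaged line difference held under all 8 other settings and all left-out libraries. The number of the 6 genes called changed as follows. For the averaged decitabine effect it was 1 in place of 0 with DESeq2's size factors in edgeR and with DESeq2. For resistant against parental vehicle tumours it was 1 in place of 2 with upper quartile scaling, the 1 CPM filter, the replicate block and without the 2 libraries that stood apart, and the gene lost was TDP2 each time (with the block log2 -0.81, adjusted p = 0.0539), while TOP1 stayed called. It was 1 in place of 0 without a filter and with DESeq2 for decitabine against vehicle and for the combination against vehicle, both in parental tumours. For the averaged doxorubicin effect it was 2 in place of 1 without a filter, with DESeq2 and without the 2 libraries. For the difference of the doxorubicin effect with and without decitabine in parental tumours it was 1 without a filter (TOP2A, adjusted p = 0.0113). For decitabine against vehicle in resistant tumours it was 0 in place of 1 with the replicate block (TOP3A log2 0.61, adjusted p = 0.055), with the 2 groups alone and without the 2 libraries. For resistant against parental decitabine tumours it was 1 in place of 3 without the 2 libraries. The cause of these moves was not tested. With 1 library left out the number ranged from 1 to 3 for the averaged doxorubicin effect and for the line under decitabine, from 2 to 3 for the averaged line difference and for the combination against decitabine in parental tumours, from 1 to 2 for the line under vehicle, and from 0 to 1 for the averaged decitabine effect, decitabine against vehicle in both lines and the line under the combination. The block changed no other call of the 6 genes. Counts over all genes moved more: 895 genes became 210 to 1151 with 1 library left out for the combination against decitabine in parental tumours, and 320 became 63 to 728 for the averaged doxorubicin effect. Depth limits TDP2, with 7 to 72 counts a library, and TOP3B, with at most 5.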
